A study of Mus musculus with 11 samples.

Results

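Sostdc1 and 4 genes beside it on mouse chromosome 12 were followed through the Tfr libraries and the single-cell library of a study of follicular T cells. The genes were chosen by symbol as chromosomal neighbours of Sostdc1. They are Lrrc72, Ankmy2, Bzw2 and Tspan13, and with Sostdc1 they make 5 of the 29224 genes in the bulk table and 5 of the 31053 features in the single-cell matrix. Sostdc1 was already known to stand high in the library labelled KO when the group was drawn up, so the values of that contrast and of the Tfh gate are descriptions and carry no test. The RefSeq table of assembly GRCm38.p6 puts the 5 genes in the order Tspan13, Bzw2, Ankmy2, Lrrc72 and Sostdc1 with no other protein-coding gene between them.

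The series asks which follicular helper T (Tfh) cells make Sostdc1 and how this bears on follicular regulatory T (Tfr) cells, which are Foxp3-expressing T cells that enter B cell follicles. Of 11 samples, 3 were used, all from draining lymph nodes of C57BL/6 mice: 1 bulk RNA library of Tfr cells with the genotype WT, 1 of Tfr cells with the genotype given as Sostdc1 homo and titled knockout (KO), and 1 droplet single-cell library of CD4 T cells carrying CD44, a surface marker of antigen-experienced cells, from mice heterozygous for Sostdc1-EGFP. Tfr cells were sorted on CXCR5, PD-1 and high GITR. The labels give no age, immunisation or number of animals, do not say whether animals were pooled, and do not say which part of Sostdc1 the knockout allele lacks or whether the reporter allele still makes Sostdc1 RNA. With 1 library per group there is no replicate check, no p-value is given, and intervals are 95% intervals that cover counting error only.

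Sostdc1 is a secreted protein of the sclerostin family that binds BMP ligands and Wnt co-receptors and so limits both signals outside the cell. Bzw2 is a regulator of translation start, Ankmy2 is an ankyrin-repeat protein that acts in cilium-dependent Hedgehog signalling, and Tspan13 is a tetraspanin, a membrane protein with several membrane-spanning segments. Lrrc72 is a leucine-rich repeat protein. Nearby genes can share regulatory DNA without sharing a function.

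Bzw2 and Ankmy2 lie head to head, and their DNA is shown because the levels of these neighbours also went together across cell clusters, as described further on. Promoter windows of RefSeq (GRCm38.p6) were found for 4 of the 5 genes, Tspan13, Bzw2, Ankmy2 and Lrrc72. The annotated start sites of Bzw2 and Ankmy2 were 299 bases apart, so that the windows overlap in a stretch that lies upstream of both, chr12:36156874-36157075, 202 bases, read on the + strand with Ankmy2 to the right and Bzw2 to the left. The capitals mark a CCAAT box and the E-box CACGTG, the only matches to the motifs searched.
Bzw2-Ankmy2 shared upstream stretch: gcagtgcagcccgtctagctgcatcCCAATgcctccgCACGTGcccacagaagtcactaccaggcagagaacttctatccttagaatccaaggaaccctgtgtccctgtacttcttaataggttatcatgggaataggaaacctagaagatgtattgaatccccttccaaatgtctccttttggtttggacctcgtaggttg
Of 32851 promoter windows cut to the same length, 29.5% held CCAAT and 5.30% held CACGTG on either strand. These windows were the 202 bases directly before each start site, whereas the shared stretch lies 48 bases away from both of its start sites. The windows are thus not a like background for the stretch, and the 48 bases on each side were not searched. GGGCGG, which 31.1% of windows held, had no match in these letters. Nor was there a match to TGANTCA, present in 5.51% of windows, or to CTTTGA, present in 11.03%. The GC content of the stretch was 48.5% against a median of 53.0% over all windows.

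Before any level of the bulk libraries is read, the targeted gene has to be set against the labels. The library labelled KO held 458 counts of Sostdc1 among 27777625, and the library labelled WT held 4 among 18076300, so the gene ran against the label. Transcripts that lack a coding part can still be counted under a gene's name, and since the deleted part is not given these counts check neither the allele nor the sample. Xist stood at 34234 and 39 counts and Ddx3y at 6 and 3557, so that the KO label went with the pattern of female RNA and the WT label with that of male RNA. Genotype, sex and library cannot be told apart in this pair, and whether the labels or columns of the 2 libraries were exchanged was not tested. The Tfr marker Foxp3 stood at 1164 and 1471 CPM (counts per 1000000 of a library's total) in the libraries labelled KO and WT. Genes of other T cell types and states were among those that differed. At 2-fold on the log2(CPM + 1) scale 2.60% of all genes with at least 5 CPM were higher in the library labelled KO and 9.12% lower. Of the fixed marker lists, 3 of 8 measured Tfh-like genes, 4 of 6 T helper 1-like genes and 3 of 7 T helper 17-like genes were higher and 0 were lower, with summed levels of 597 against 334 CPM, 747 against 330 CPM and 1862 against 453 CPM and none of the listed genes at 0. Some genes of these lists that did not reach 2-fold had ratios below 1. The Tfh-like gene Tox2 had a ratio of 0.628 (0.520 to 0.758), and the T helper 1-like genes Tbx21 and Cxcr3 had ratios of 0.577 and 0.666. Of the 8 Treg-like genes 1 was higher, Gpr83, and 0 were lower, with sums of 12444 against 9118 CPM. Foxp3, with a ratio of 0.791, was the only gene of that list with a ratio below 1. Of the resting or central memory-like genes 0 of 7 were higher and 2 lower, with sums of 591 against 1023 CPM, and of the recently stimulated genes 0 of 7 were higher and 3 lower, with 2089 against 4950 CPM. In these 2 lists Tcf7 and Egr2 went the other way, with ratios of 1.65 and 1.36. Most of the difference in the recently stimulated sum lay in Junb, 56.3 against 1380 CPM, and Nr4a1, 1045 against 2299 CPM. B-like genes summed to 497 against 1122 CPM, most of it Ighm, with 473 against 1091 CPM. The part of these cells in the values below was not tested, and in bulk RNA fewer cells of a type and less RNA per cell cannot be told apart.

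Sostdc1 was high in the library labelled KO and near the counting floor in the other, while the neighbours Bzw2, Ankmy2, Tspan13 and Lrrc72 did not share that difference. The floor of 3 counts equals 0.108 CPM for the KO label and 0.166 CPM for the WT label. In the library labelled KO, Sostdc1 stood at 16.5 CPM (15.0 to 18.1), and under the WT label at 0.221 CPM (0.0603 to 0.567), a ratio of 74.5 (28.9 to 275). On the log2(CPM + 1) scale, where the change of low genes is understated, the difference was 3.84, the 5th highest of the 10194 genes with at least 5 CPM in 1 library.

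Of the neighbours, Bzw2, Ankmy2 and Tspan13 were measured well enough to show small differences. Bzw2 had 2927 and 1092 counts, or 105 and 60.4 CPM in the libraries labelled KO and WT, a ratio of 1.74 (1.63 to 1.87). Ankmy2 had 558 and 361 counts, or 20.09 and 19.97 CPM, a ratio of 1.01 (0.880 to 1.15). Tspan13 had 1384 and 1389 counts, or 49.8 and 76.8 CPM, a ratio of 0.648 (0.601 to 0.699). Bzw2 was thus higher and Tspan13 lower in the library labelled KO beyond counting error, and Ankmy2, which lies between Bzw2 and Lrrc72, had an interval that included 1. Lrrc72, which lies next to Sostdc1, had 1 count under the KO label and 13 under the WT label, or 0.0360 and 0.719 CPM, which is 19.98-fold (3.0 to 849) in the direction opposite to Sostdc1. It stayed under 5 CPM in both libraries and was not counted. On the log2(CPM + 1) scale Bzw2 differed by 0.79, Ankmy2 by 0.01, Tspan13 by -0.62 and Lrrc72 by -0.73.

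At a difference of at least 2-fold on that scale, 1 of the 4 described genes with at least 5 CPM was higher in the library labelled KO, Sostdc1, and 0 were lower. The shares over all 10194 genes were 2.60% and 9.12%. Because these same values were known when the group was drawn up, nothing is read from the comparison of shares. The median difference over all genes was -0.04 when libraries were scaled by their totals, and 0.11 and 0.18 under TMM scaling and DESeq2 size factors. The numbers of genes higher and lower moved with it, from 265 and 930, or 22.2% higher, to 414 and 688, or 37.6%, and to 511 and 603, or 45.9%. Bzw2 lay nearest to the 2-fold limit: it differed by 0.94 under TMM scaling and by 1.01 under DESeq2 size factors, which counts it as higher. Sostdc1 and Bzw2 stayed above 0, and Tspan13 and Lrrc72 below 0, under both. Ankmy2, level at 0.01 with library totals, moved to 0.15 and 0.22, close to the shift of the median of all genes.

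**Figure D1:**
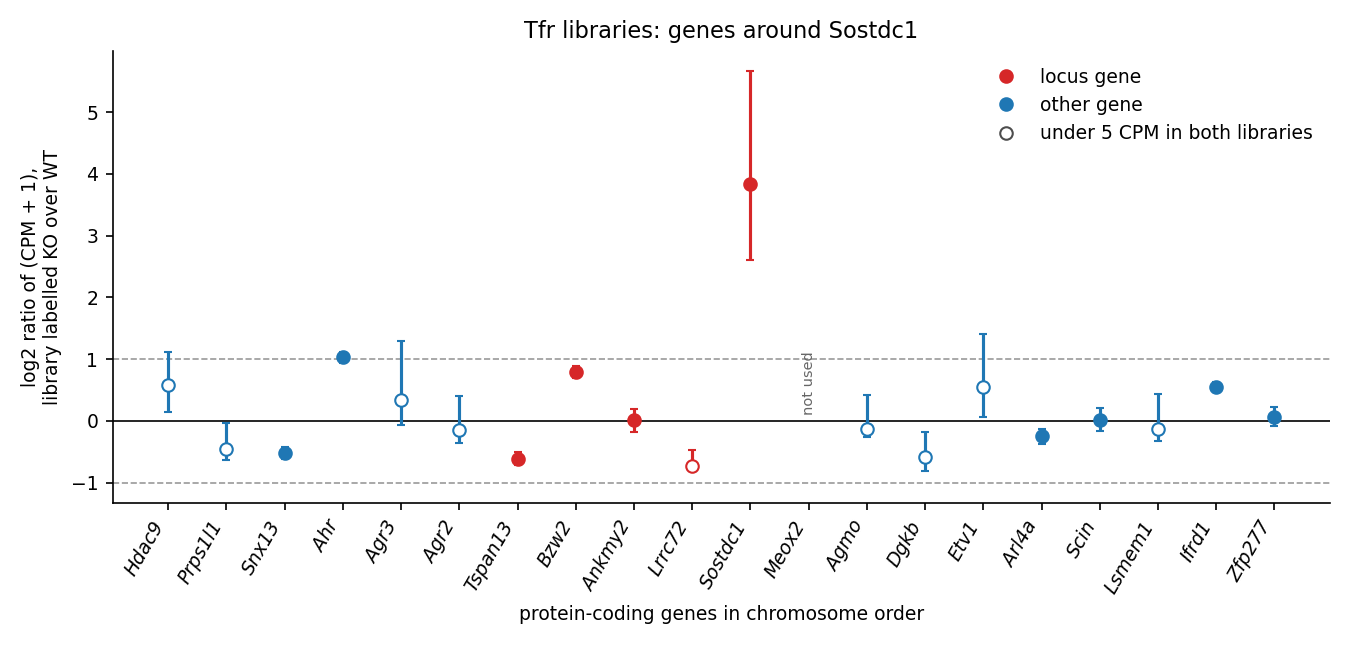
Log2 ratio of (CPM + 1), library labelled KO over library labelled WT (vertical axis), for 20 protein-coding genes around and including Sostdc1 in chromosome order; bars are 95% counting intervals, dashed lines mark 2-fold, and open points are under 5 CPM in both libraries. Sostdc1 stands at 3.84, and of the other genes shown with at least 5 CPM only Ahr, at 1.03, passes 2-fold.

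The plot of genes in chromosome order extends the row to 20 protein-coding genes around and including Sostdc1. Of these 20 genes, 19 were used, 10 reached 5 CPM in 1 library, and 2 of those 10 were at least 2-fold higher in the library labelled KO: Sostdc1 and Ahr, the aryl hydrocarbon receptor, a ligand-activated transcription factor. Ahr lies 7 genes from Sostdc1, beyond Tspan13, and stood at 156 and 76.0 CPM in the libraries labelled KO and WT, a ratio of 2.05 (1.93 to 2.18). None of the 10 was at least 2-fold lower. Over all genes 2.60% were higher, Sostdc1 was known to be high beforehand, and DESeq2 size factors gave 3 of 10 with Bzw2, so nothing is read from this count. On the side of Sostdc1 away from Lrrc72, Meox2 is not used here, Agmo, Dgkb and Etv1 stayed under 5 CPM, Arl4a had a ratio of 0.836 (0.767 to 0.912), and Scin had 1.01 (0.885 to 1.16). Arl4a was thus slightly lower in the library labelled KO, and the interval of Scin included 1.

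Closest relatives of the neighbours elsewhere in the genome were set beside them. Sost, the sclerostin gene, had 7 and 2 counts in the libraries labelled KO and WT and was under the 5 CPM limit. Bzw1, the paralog of Bzw2, stood at 538 and 394 CPM, a ratio of 1.37 (1.33 to 1.41), below the interval of Bzw2. Tspan31, a tetraspanin, had a ratio of 1.30 (1.16 to 1.47), on the other side of 1 from Tspan13. No other gene of the bulk table overlaps the 5 genes in RefSeq.

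Genes of the pathways in which Sostdc1 acts were mostly too low to compare. Of 34 secreted BMP and Wnt antagonists and their receptors, 30 were in the table and 7 reached 5 CPM: 1 was at least 2-fold higher in the library labelled KO, the activin receptor Acvr2a with 29.4 and 13.2 CPM, and 1 lower, the BMP receptor Bmpr1a at 13.5 against 28.7 CPM, whose call was lost under TMM scaling and DESeq2 size factors. The Wnt co-receptor Lrp6 had a ratio of 1.09 (1.01 to 1.16), and Twsg1, an extracellular BMP modulator, 1.32 (1.28 to 1.36). The median difference of the 7 genes was 0.29 on the log2(CPM + 1) scale, against -0.04 over all genes, of which 2.60% were higher and 9.12% lower.

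In the single-cell library the same neighbours could be read in T cells of one kind against another within 1 library and 1 genotype. Of 15002 barcodes 11711 cells were kept, of which 10484 were T cells by their Cd3 genes. The Tfh gate took T cells with at least 1 UMI (unique molecular identifier, 1 counted RNA molecule) of Cxcr5 and of Pdcd1 and none of Foxp3, and held 779 cells. The other 9705 T cells were the comparison, at a median depth of 5851 UMIs, where gated cells had 7441. The name of the gate was checked with genes it did not use: Bcl6, the lineage factor of Tfh cells, had a UMI in 39.8% of gated cells and in 4.27% of T cells with none of the 3 gate genes, and Il21, a cytokine of Tfh cells, in 32.7% and 1.86%.

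Sostdc1 was the gene of the group that differed most in this contrast as well. It had 596 UMIs in the Tfh gate, 81.4 CPM (74.95 to 88.2) of summed UMIs, and 502 in other T cells, 7.15 CPM (6.54 to 7.80), a ratio of 11.4 (10.1 to 12.8). The gate held 7.43% of T cells and 54.3% of the Sostdc1 UMIs of T cells.

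Bzw2, Ankmy2 and Tspan13 were also higher in the Tfh gate, by less. Bzw2 stood at 291 CPM (279 to 304) in it and 165 CPM (162 to 168) outside, a ratio of 1.76 (1.68 to 1.85). The ratio was 1.46 (1.28 to 1.66) for Ankmy2, from 38.6 and 26.5 CPM, and 1.35 (1.26 to 1.44) for Tspan13, from 145 and 108 CPM. Lrrc72 had 0 UMIs in the gate, with a Poisson interval up to 0.504 CPM, and 4 UMIs in all other T cells. It was thus not detectable at this depth. On the log2(CPM + 1) scale the differences were 3.34 for Sostdc1, 0.82 for Bzw2, 0.53 for Ankmy2 and 0.43 for Tspan13, beside a median of 0.13 over the 9109 genes with at least 5 CPM in 1 group. At 2-fold, 1 of the 4 described genes with at least 5 CPM was higher, Sostdc1, and 0 were lower, where 3.03% of all genes were higher and 3.07% lower. Bzw1 had a ratio of 1.12 (1.07 to 1.18), and Sost had no UMI in either group.

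**Figure D2:**
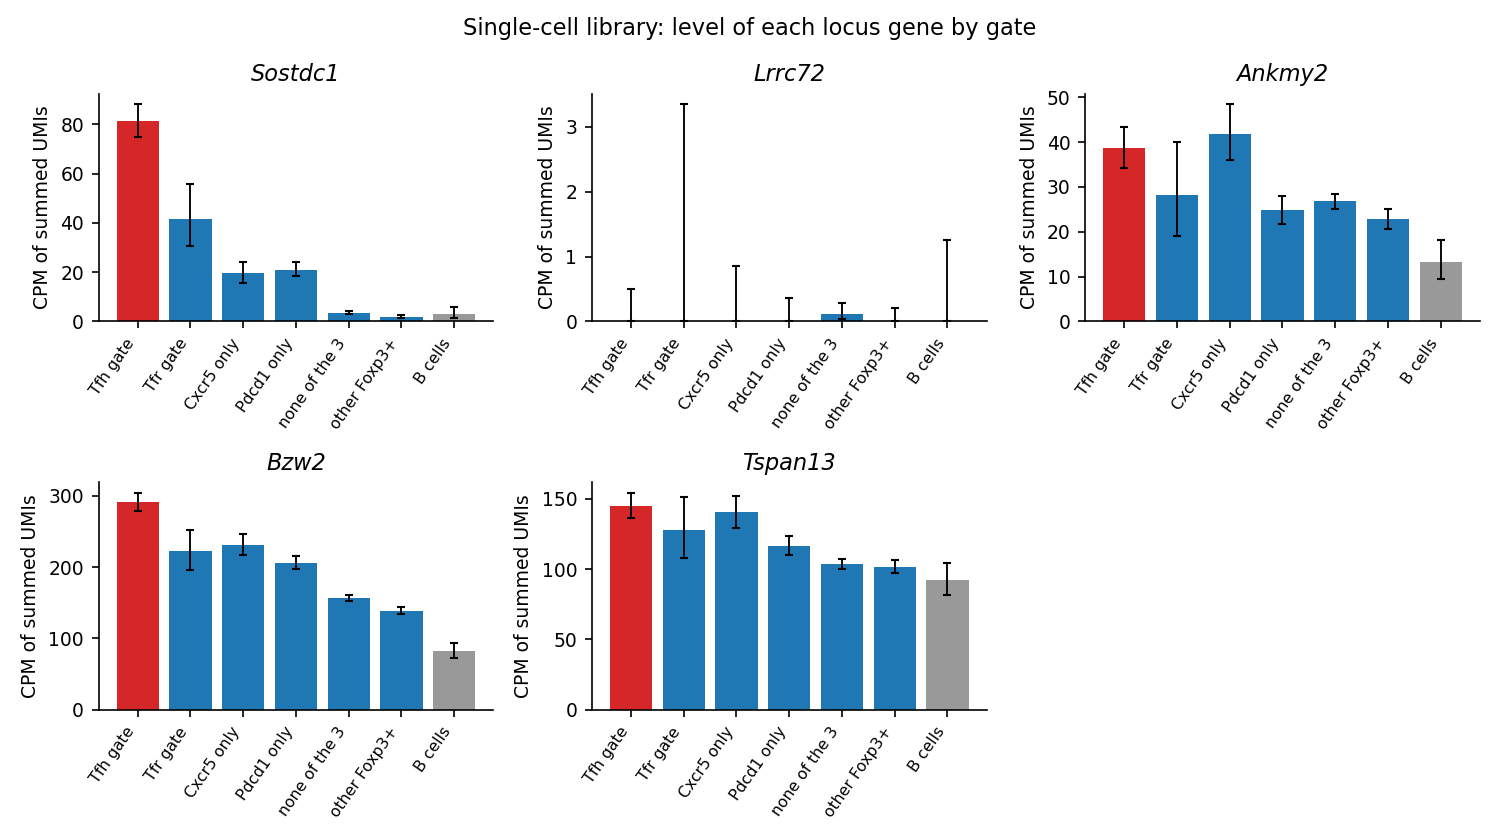
CPM of summed UMIs (vertical axis, from 0) of each neighbourhood gene in 6 groups of T cells and in B cells, with 95% Poisson intervals. Sostdc1 is highest in the Tfh gate, at 81.4 CPM, and low in T cells with none of the 3 gate genes, whereas Ankmy2, Bzw2 and Tspan13 are present in every group.

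By summed UMIs, which a few cells can carry, Sostdc1 was highest in the 2 groups with both receptor genes, Cxcr5 and Pdcd1. It fell from 81.4 CPM in the Tfh gate to 41.8 CPM (30.6 to 55.7) in the Tfr gate, which has all 3 gate genes, then to 20.9 CPM (18.2 to 24.0) with Pdcd1 only and 19.4 CPM (15.5 to 24.1) with Cxcr5 only. It was lowest with none of the 3, at 3.49 CPM (2.92 to 4.15), and in other Foxp3-positive T cells, at 1.72 CPM (1.16 to 2.45). The 2 groups with 1 receptor gene did not differ beyond their intervals.

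The Tfr gate is small. Its 46 Sostdc1 UMIs came from 6 of 81 cells, with a median of 8 UMIs and up to 14 in a cell, and without the cell with 14 the level was 29.3 CPM. By share, 7.41% of its cells (2.77 to 15.4) had a Sostdc1 UMI. That interval holds the shares with Pdcd1 only, 6.18%, and with Cxcr5 only, 4.95%, so shares did not set the Tfr gate above these groups. Bzw2 had a UMI in 80.2% of the cells of the Tfr gate (69.9 to 88.3), against 52.7% (50.5 to 54.8) of other Foxp3-positive T cells. Shares depend on depth, and the median was 10388 UMIs in the Tfr gate and 6031 in other Foxp3-positive T cells. With each cell thinned to 3000 UMIs the Bzw2 shares were 42.5% (31.5 to 54.1) and 30.6% (28.6 to 32.7), with overlapping intervals. The thinned Sostdc1 share of the Tfr gate was 6.25% (2.06 to 14.0). This interval holds the thinned shares with Pdcd1 only, 4.18%, and with Cxcr5 only, 2.20%. Bzw2 stood at 222 CPM (195 to 252) in the Tfr gate, between the Tfh gate and the 139 CPM (134 to 145) of other Foxp3-positive T cells. The Foxp3-positive cells of this library, from a reporter mouse, are not the sorted Tfr cells of the bulk libraries.

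Among the neighbours the order of the groups differed from gene to gene. Ankmy2 was as high with Cxcr5 only, 41.9 CPM (36.0 to 48.4), as in the Tfh gate, and lay between 22.7 and 28.1 CPM in the other T cell groups. Tspan13 was likewise level between the Tfh gate, 145 CPM (137 to 154), and Cxcr5 only, 140 CPM (129 to 152), and lower with Pdcd1 only, 116 CPM (110 to 123). Bzw2 was higher in the Tfh gate than in each other group beyond the intervals, and was 231 CPM (217 to 246) with Cxcr5 only, 206 CPM (197 to 215) with Pdcd1 only and 157 CPM (153 to 161) with none of the 3. In B cells these 3 genes were lower than in the Tfh gate, with 13.3 CPM (9.46 to 18.2) of Ankmy2, 82.2 CPM (72.2 to 93.3) of Bzw2 and 92.5 CPM (81.8 to 104) of Tspan13.

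Shares of cells gave the same picture for the Tfh gate against other T cells, with a view of the background that free RNA in droplets leaves. In the Tfh gate 16.7% of cells (14.1 to 19.5) had a Sostdc1 UMI, against 1.95% of other T cells (1.68 to 2.24) and 1.68% of B cells (0.727 to 3.28), which had a median of 4693 UMIs. T cells with none of the 3 gate genes, at 1.17%, and other Foxp3-positive T cells, at 0.869%, lay inside the interval of the B cell share of Sostdc1. These 2 groups cannot be told from background at this depth. Other T cells as a whole lay inside it by share, but their summed level, 7.15 CPM (6.54 to 7.80), lay above that of B cells, 3.07 CPM (1.40 to 5.83). The shares with Pdcd1 only, 6.18% (4.80 to 7.81), and with Cxcr5 only, 4.95% (3.39 to 6.96), also lay above the B cell interval. The summed level with none of the 3, 3.49 CPM, was inside the B cell interval, although its 130 UMIs came from 69 cells where the 9 UMIs of B cells came from 8. After thinning each cell to 3000 UMIs, which left out 17 gated and 740 other T cells, the shares of Sostdc1 were 11.3% and 1.18%, and 0.702% with none of the 3 against 0.691% (0.143 to 2.01) in B cells. Bzw2 had a UMI in 80.1% of gated cells and 56.9% of other T cells, or 53.5% and 36.7% after thinning. Tspan13 had a UMI in 62.9% (59.4 to 66.3) and 44.7% (43.7 to 45.7), or 33.3% and 26.1% after thinning. For Ankmy2 the shares were 28.2% (25.1 to 31.5) and 16.7% (15.9 to 17.4), and 11.4% and 7.88% after thinning. In B cells 26.4% had a Bzw2 UMI, 30.6% a Tspan13 UMI and 7.13% an Ankmy2 UMI, so that the shares of all 3 genes in T cells lay above those in B cells.

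Whether neighbours followed Sostdc1 from cell to cell was read inside each group, which the choice of genes did not use. In the Tfh gate, 130 cells had a Sostdc1 UMI and 649 had none, at median depths of 7086.5 and 7497 UMIs. Bzw2 stood at 357 CPM (324 to 392) with and 278 CPM (265 to 292) without a Sostdc1 UMI, a ratio of 1.28 (1.15 to 1.42). Tspan13 stood at 176 CPM (153 to 201) and 139 CPM (130 to 149), a ratio of 1.26 (1.08 to 1.47). Both levels were thus higher beyond counting error in cells with a Sostdc1 UMI. Ankmy2, at 47.6 CPM (36.2 to 61.6) and 36.8 CPM (32.2 to 42.0), had a ratio of 1.29 (0.952 to 1.73), which includes 1.

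Outside the gate Bzw2 and Tspan13 were also higher with Sostdc1. Of other T cells, 189 had a Sostdc1 UMI and 9516 had none, at median depths of 5903 and 5850 UMIs. Bzw2 stood at 266 CPM (240 to 293) and 163 CPM (160 to 166) in them, a ratio of 1.63 (1.47 to 1.80) whose interval lay above that inside the gate. For Tspan13 the levels were 157 CPM (138 to 179) and 106 CPM (104 to 109), a ratio of 1.48 (1.29 to 1.69), and the interval overlapped that inside the gate. Ankmy2 was level, at 27.2 CPM (19.5 to 37.1) and 26.4 CPM (25.2 to 27.7), a ratio of 1.03 (0.734 to 1.41). Thinned to 3000 UMIs, Bzw2 was found in 62.8% (53.8 to 71.1) and 51.7% (47.7 to 55.6) of gated cells with and without a Sostdc1 UMI, intervals that overlap, and in 47.7% (40.2 to 55.4) and 36.4% (35.4 to 37.4) of other T cells, which do not. For Tspan13 the thinned shares had overlapping intervals on both sides, 39.5% (31.0 to 48.5) and 32.1% (28.4 to 35.9) in the gate and 33.0% (26.1 to 40.4) and 25.9% (25.02 to 26.9) outside it, and for Ankmy2 the thinned share in the gate was 10.1% with and 11.7% without a Sostdc1 UMI.

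The 2 sides differed in make-up outside the gate: 50.8% of the other T cells with a Sostdc1 UMI, and 16.6% of those without, had Cxcr5 only or Pdcd1 only, groups in which Bzw2 was higher. A split by group, added after the data were seen, gave Bzw2 a ratio of 1.61 (1.33 to 1.92) among cells with none of the 3 gate genes, 1.51 (1.18 to 1.91) with Cxcr5 only and 1.31 (1.11 to 1.54) with Pdcd1 only. Bzw2 was thus higher with Sostdc1 in each of these 3 groups, by ratios whose intervals overlapped that of the Tfh gate. In cells with none of the 3, Sostdc1 itself could not be told from background at this depth, as given above. In other Foxp3-positive T cells, of which 18 had a Sostdc1 UMI, the ratio was 1.21 (0.740 to 1.88). Tspan13 had a ratio of 1.36 (1.06 to 1.73) with none of the 3 and 1.55 (1.25 to 1.89) with Pdcd1 only, but 1.02 (0.684 to 1.46) with Cxcr5 only. For Ankmy2 all 4 intervals included 1.

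**Figure D3:**
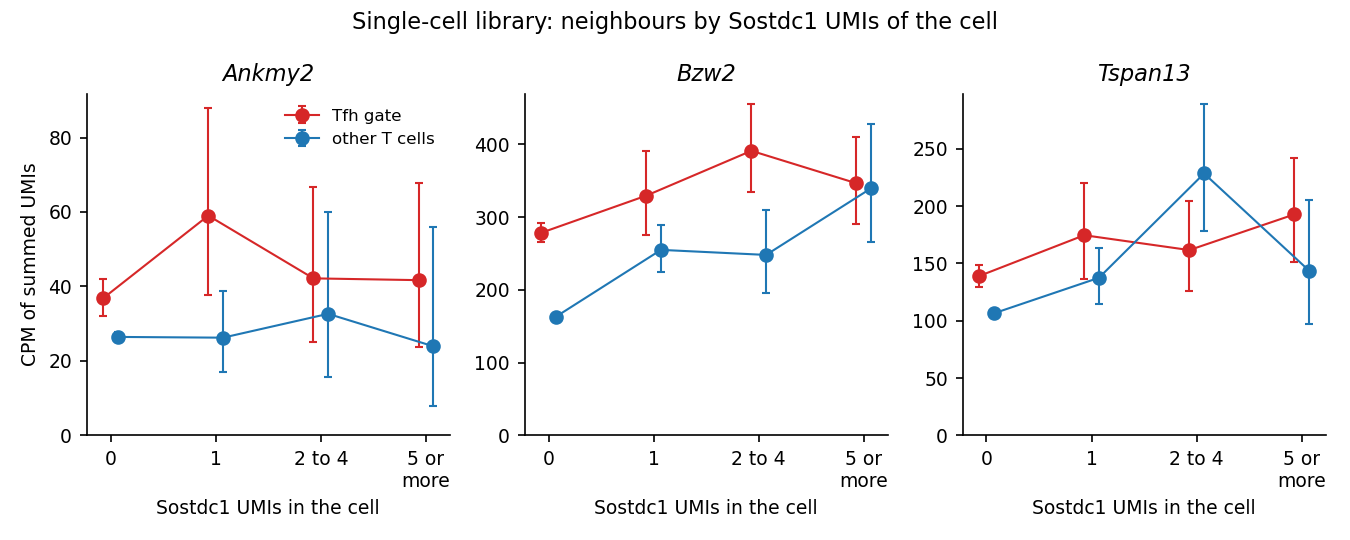
CPM of summed UMIs (vertical axes, from 0, scaled per gene) of Ankmy2, Bzw2 and Tspan13 in cells with 0, 1, 2 to 4 and 5 or more Sostdc1 UMIs, in the Tfh gate (red) and other T cells (blue), with 95% Poisson intervals. Bzw2 goes from 163 CPM in other T cells with no Sostdc1 UMI to 340 CPM in those with 5 or more, and Ankmy2 shows no such course.

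The number of Sostdc1 molecules in a cell gave a finer view. In other T cells Bzw2 stood at 163, 255, 248 and 340 CPM in cells with 0, 1, 2 to 4 and 5 or more Sostdc1 UMIs, and in the gate at 278, 330, 391 and 347 CPM. In the highest class it reached 347 CPM (290 to 411) inside the gate and 340 CPM (265 to 429) outside it, so that the 2 groups, which had differed at 0 Sostdc1 UMIs, overlapped. The classes above 0 hold 29 to 48 cells, apart from the 116 other T cells with 1 UMI, and neighbouring ones did not differ in Bzw2 beyond their intervals. Tspan13 had 139, 175, 162 and 193 CPM in the gate and 106, 137, 228 and 144 CPM outside it, with no steady course. Ankmy2 had 41.7 CPM (23.8 to 67.7) and 23.9 CPM (7.77 to 55.8) in the highest class inside and outside the gate.

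The neighbours remained higher in the gate among cells with no Sostdc1 UMI, a comparison added after the data were seen. Over 649 gated cells and 9516 other T cells, Bzw2 had a ratio of 1.71 (1.62 to 1.80), Tspan13 of 1.31 (1.21 to 1.40) and Ankmy2 of 1.39 (1.21 to 1.60), and each interval overlapped that of the whole groups. A cell with no Sostdc1 UMI can still hold Sostdc1 RNA, since only a small part of a cell's RNA is counted.

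Clusters gave a view over many genes, the gate genes Cxcr5 and Pdcd1 among them, which are also Tfh-like markers. Clustering without the neighbourhood genes split the 11711 cells into 19 clusters. Sostdc1 was highest in cluster 12, Tfh-like by its markers and led by Gal, Krt83 and Padi4, with 174 CPM (157 to 192), followed by cluster 4, also Tfh-like and led by H2-Q2, Rflnb and Tox2, with 44.9 CPM (40.0 to 50.2), and cluster 8, led by Cd200, a Tfh-like marker, and the recently stimulated markers Egr3 and Egr2, with 36.9 CPM (32.6 to 41.7). The Tfh gate held 76.2% of the cells of cluster 12, 24.9% of cluster 4 and 16.5% of cluster 8. The median over clusters was 2.03 CPM. The levels of Sostdc1 in clusters 4 and 8 had overlapping intervals, and that in cluster 12 lay above both. A Sostdc1 UMI was found in 23.8% of the 319 cells of cluster 12, 8.42% of the 1104 cells of cluster 4 and 8.27% of the 738 cells of cluster 8. Outside these 3 clusters the highest level was 9.04 CPM (3.32 to 19.7), in cluster 17, a group of 110 cells.

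**Figure D4:**
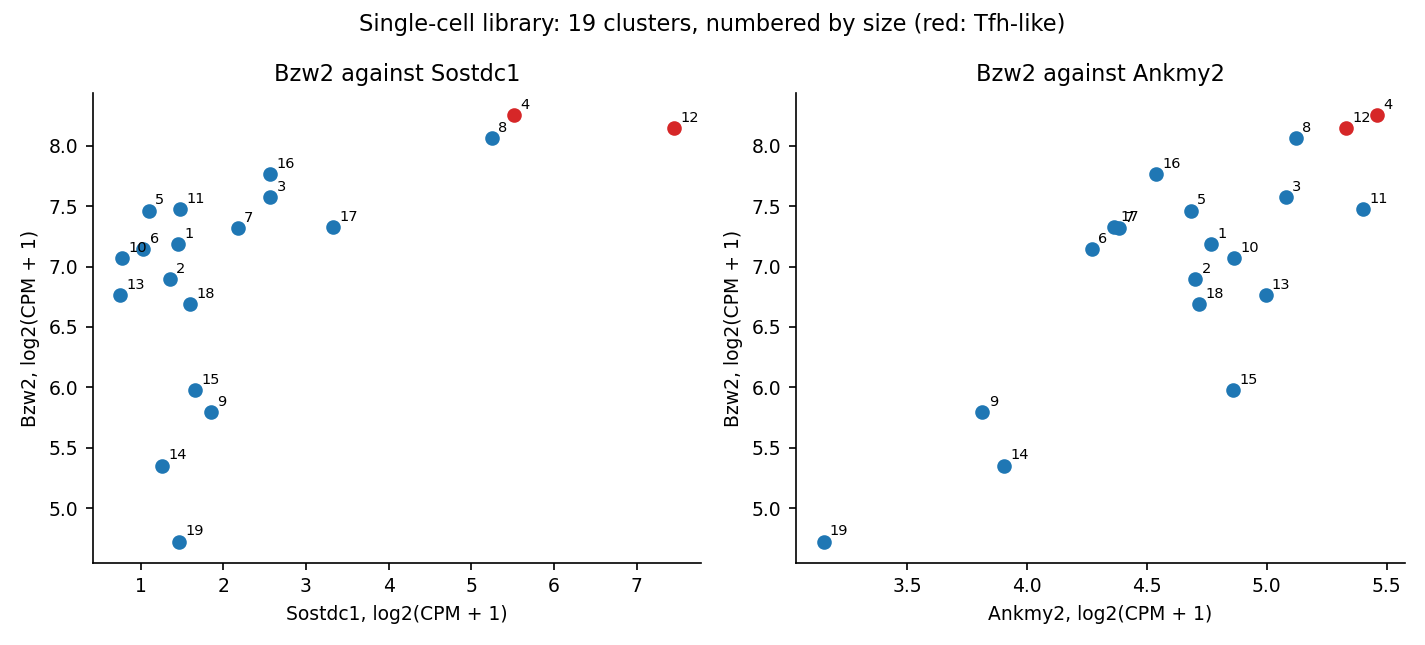
Levels over 19 clusters on the log2(CPM + 1) scale: Bzw2 (vertical) against Sostdc1 (horizontal) on the left, Bzw2 against Ankmy2 on the right; each point is a cluster with its number, and the 2 Tfh-like clusters, 4 and 12, are red. The pairs have r of 0.57 and 0.80, and the 2 red points are at the upper end of each plot.

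Over the 19 clusters, which share 1 library and differ in depth, the log2(CPM + 1) levels of Sostdc1 and Bzw2 had a Pearson r of 0.57 and a Spearman rho of 0.60. Without clusters 4 and 12, the farthest from the median of Sostdc1, r was 0.43 over 17 clusters. Against Sostdc1, r was 0.44 for Ankmy2 and 0.21 for Tspan13, with rho of 0.31 and 0.41, and r was 0.17 for each without those clusters, so the 2 genes are not ranked. The genes of at least 300 UMIs whose pattern was most like that of Sostdc1 were Gal, Ascl2, Prmt3, Il4 and Tox2, with r from 0.87 to 0.88. Bzw2 ranked 208th among 8984 genes, so its likeness to Sostdc1 was far below that of the leading genes.

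Bzw2 and Ankmy2, whose shared upstream stretch is printed above, had r of 0.80 and rho of 0.64 over the same clusters. Without clusters 14 and 19, the farthest from the median of Bzw2, these were 0.59 and 0.50. Both genes were also low in the B-like cluster 9, with 54.6 and 13.1 CPM, and in the myeloid-like cluster 14, with 39.9 and 14.0 CPM. This r was not ranked among other pairs of genes, and a part of the shared stretch in it was not tested. Bzw2 and its paralog Bzw1, which lies elsewhere, had r of 0.47. Bzw2 was highest in cluster 4, with 305 CPM (292 to 318), cluster 12, with 282 CPM (260 to 305), and cluster 8, with 266 CPM (254 to 278), and lowest in cluster 19, plasma-like, with 25.4 CPM (17.02 to 36.5). Ankmy2 was highest in cluster 4, with 43.0 CPM (38.2 to 48.2), and lowest in cluster 19, with 7.89 CPM (3.61 to 15.0). In the bulk libraries the 2 genes had parted, with ratios of 1.74 and 1.01 whose intervals do not overlap.

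**Figure D5:**
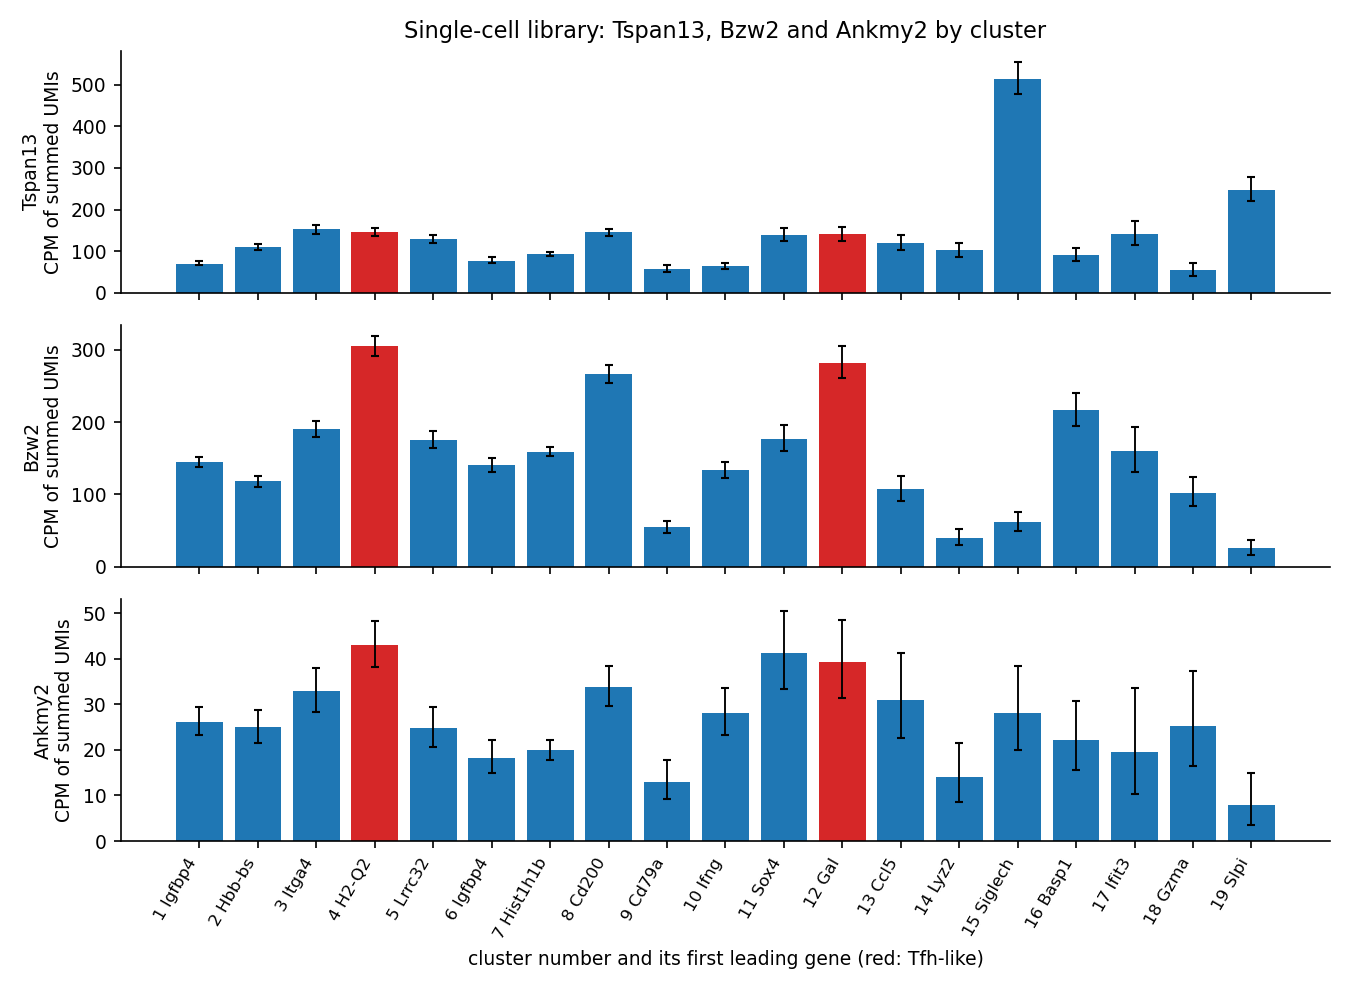
CPM of summed UMIs (vertical axes, from 0) of Tspan13, Bzw2 and Ankmy2 in each of 19 clusters, named by number and first leading gene, with 95% Poisson intervals; the Tfh-like clusters 4 and 12 are red. Tspan13 peaks at 515 CPM in cluster 15, where Bzw2 is at 61.9 CPM.

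Tspan13 was highest outside the T cell clusters, with 515 CPM (478 to 554) in cluster 15, a group of 154 cells led by Siglech, Cox6a2 and Klk1, where 96.1% of cells had a Tspan13 UMI, and 248 CPM (220 to 279) in the plasma-like cluster 19. By the Cd3 rule 36.4% of the cells of cluster 15 counted as T cells, with 0.649% in the Tfh gate, so the other T cells include some of them. Their part in the Tspan13 levels of other T cells was not tested. In the Tfh-like clusters 4 and 12 Tspan13 stood at 146 CPM (137 to 155) and 141 CPM (126 to 157), no higher than the 152 CPM (142 to 163) of cluster 3, led by Itga4. Its median over clusters was 119 CPM and its lowest value 54.7 CPM (41.1 to 71.4), in cluster 18, NK or CD8-like. Bzw2, the next gene on the chromosome, had 61.9 CPM (49.5 to 76.4) in cluster 15, and over the 19 clusters Bzw2 and Tspan13 had r of -0.15 and rho of 0.27. Without clusters 14 and 19 these were 0.05 and 0.51, so the sign of r rests on those clusters. Lrrc72 had at most 0.176 CPM in any cluster, which gives no measure of likeness.

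Few antagonists and receptors of the Sostdc1 pathways could be compared between the Tfh gate and other T cells. Of these antagonists and receptors 3 reached 5 CPM, and 1 of these, Dkkl1, a secreted relative of the Dickkopf proteins, was lower in the gate, with 2.59 and 11.4 CPM and a ratio of 0.227 (0.136 to 0.356), where 3.07% of all genes were lower.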

How the data were processed

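The genes, gene lists and marker lists were chosen with earlier results of these data known. The deposited bulk table gives whole-number counts per gene for 2 libraries, matched to the WT and KO Tfr samples by genotype and cell type in the column names (the WT column carries a number that its sample's title lacks, and 1 WT Tfr RNA sample is labelled), with normalized CPM values, a fold change that is the ratio of those values, its log2 and p-values, all by the authors. The deposited CPM, fold changes, log2 values and p-values were not used, and CPM were computed here from counts and library totals (0 value columns were without a sample or comparison). The read counter and its strand setting were not given in the sources used here. Without strand, overlapping transcripts cannot be told apart. Per the submitters' processing notes the series' tools were TopHat, Cufflinks, Cell Ranger 2.1.0, Seurat 2, Bowtie2, MACS2, bedtools and HOMER with builds mm9 and mm10, whose roles are not given. The single-cell matrix of UMI counts comes, per the file headers, from Cell Ranger 3.1.0. Not analysed here were 6 bulk RNA samples of Tfh or non-Tfh cells and 2 ATAC samples.

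Genes were counted as higher or lower at 2-fold on log2(CPM + 1) with at least 5 CPM in 1 group. Ratios have exact conditional binomial intervals, UMI sums exact Poisson intervals and shares of cells exact (Clopper-Pearson) ones. Bulk reads carry no molecular identifiers, so they may repeat a molecule, and intervals and floors cover counting error only. Cells with under 500 genes or at least 10% mitochondrial UMIs were removed, leaving 13190. The doublet threshold search marked 0 cells, so the 10% with the highest scores (1319) and 160 further cells in which B genes and T genes each had 3 UMIs or more were removed. T cells had at least 1 UMI of Cd3d, Cd3e or Cd3g and under 2 of a set of B cell genes that includes Cd79a, Cd79b and Ms4a1. B cells had at least 3 UMIs of the B cell genes and none of the Cd3 genes. Clusters (scanpy 1.11.5, 2000 variable genes, 30 components, 20 neighbours, Leiden resolution 1) were named from fixed markers. Named genes are the group's genes, genes within 10 coding genes of Sostdc1, paralogs, up to 4 members of the antagonist and receptor list, and the 5 most alike over clusters among genes with at least 300 UMIs. Of the 6 genes that the rule gave 5 are described, and 1 gene with its pathway list is not reported here. Gene order and promoter windows came from RefSeq, assembly GRCm38.p6. Scaling alternatives used edgeR 4.0.16 and DESeq2 1.42.0 in R 4.3.3. The counting scripts were tested on simulated data. Alternatives covered scaling, pseudocount, filters, doublets, depth and gate.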

Additional observations from a re-analysis of the deposited data

How the results depend on the processing

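Sostdc1 stayed higher in the library labelled KO under all 4 bulk alternatives, with log2 differences from 2.04 to 4.56. The lowest value, 2.04, came with a pseudocount of 5 CPM, which by construction shrinks low genes, and left the counting interval of the main value. The number of described genes at least 2-fold higher was 1 with no filter on low values, TMM scaling and pseudocounts of 0.5 and 5 CPM, and 2 with DESeq2 size factors, where Bzw2 joined. In single cells Sostdc1 stayed higher in the Tfh gate under all 8 alternatives that apply. It was 3.57 with cells thinned to 3000 UMIs, for which the cause was not tested, 2.72 with at least 2 UMIs of Cxcr5 and Pdcd1, which moves cells with 1 UMI into the comparison group, and 4.20 against T cells without a UMI of Cxcr5, Pdcd1 or Foxp3, an alternative added after the data were seen. Bzw2, Ankmy2 and Tspan13 stayed higher in the gate under all 9 alternatives. The number of genes at least 2-fold higher in the gate was 1 in every alternative that gave a count. No paired analysis was possible because each group has 1 library.

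Depth limits Lrrc72, with 14 bulk counts in all and 4 UMIs in T cells. With 1 library per group, intervals say nothing of the spread between animals.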

Other observations

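Non-coding genes of the same stretch were looked up in the single-cell matrix after the neighbours had been seen, and these values were chosen with their counts known. D630036H23Rik, a non-coding gene annotated near Sostdc1, had 6 UMIs in the Tfh gate, 0.819 CPM (0.301 to 1.78), and 19 in other T cells, 0.270 CPM (0.163 to 0.422), a ratio of 3.03 with an interval from 0.990 to 7.89 that includes 1. Of these 19 UMIs, 7 were in cells with Cxcr5 only, 1.62 CPM (0.651 to 3.34).

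Gm34215, another non-coding gene of the stretch, was higher in B cells than in T cells of this library, but not in B cells alone. It had 31 UMIs in 477 B cells, 10.6 CPM (7.19 to 15.0), in 5.66% of them, against 0 in the Tfh gate and 3 in all other T cells, 0.0427 CPM (0.00881 to 0.125). In cluster 15, led by Siglech, it stood at 8.63 CPM (4.46 to 15.1), in 7.79% of cells. The plasma-like cluster 19 had 16.7 CPM (10.0 to 26.0), and the B-like clusters 9 and 16 had 5.88 and 23.5 CPM. Gm40392 and Gm40394 had no UMI in either group of T cells.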
